A study of Rattus norvegicus with 12 samples.

Results

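The genes described here are 10 that make, break down or receive prostaglandins: the cyclooxygenases Ptgs1 and Ptgs2, the terminal synthases Ptges, Ptgis and Tbxas1, the degrading enzyme Hpgd, and the PGE2 receptors Ptger1, Ptger2, Ptger3 and Ptger4. They were chosen by gene symbol, as probes whose gene name in the array files equals one of these symbols, with the brightest probe on average over all arrays standing for each gene. They are 10 of 34912 gene names on the array, and 9 of them were among the 22925 genes bright enough to be tested, Ptger1 being the one left out. At 6 h after surgery Ptgs2 and Ptgis were higher and Ptgs1 was lower in cut bone, whether the cut was made with a laser or a bur. None of the 9 genes passed the test between laser and bur.

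RNA came from the calvaria, the flat bone of the skull roof, of rats 10 weeks old, taken 6 h after surgery, and was labelled with Cy3 and put on 12 one-colour Agilent arrays, 4 per group. In the laser group a rectangle of 8 by 3 mm was cut by Er:YAG laser, whose infrared pulses are absorbed by water and ablate bone, with 3 strokes, pulses of 127 mJ and a rate of 20 Hz. Bur bone had an equal defect made with a rotating drill bit, and in the control group the periosteum was taken off and the bone was left uncut, so that the controls too had surgery. The labels give no strain and do not say whether each array is a separate animal, and p-values then reflect only how far these samples spread, which may be technical.

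Prostaglandins are made from arachidonic acid, which phospholipases release from membranes. The cyclooxygenases turn it into PGH2: Ptgs1 is the form most cells carry at rest and is abundant in platelets, and Ptgs2 is the form that cytokines, growth factors and mechanical load induce. Terminal synthases then divide PGH2 among PGE2 (Ptges), prostacyclin (Ptgis) and thromboxane A2 (Tbxas1). Hpgd oxidises PGE2 and ends its action. PGE2 acts on 4 G protein-coupled receptors, of which Ptger2 and Ptger4 raise cAMP, Ptger3 mostly lowers it and Ptger1 raises calcium. In bone PGE2 is known both for stimulating formation and for promoting resorption through osteoblast signals.

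The promoters of the cyclooxygenases are shown because these genes differed from control in opposite directions, and that of Ptges because its enzyme is coupled to Ptgs2 in PGE2 production. Each is the 250 bases before the gene's start from RefSeq (GRCr8), 5′ to 3′ on the gene's own strand, and matches to the searched motifs are in capitals. RefSeq promoters were matched by symbol for 9 of the 10 genes.
Ptgs2, chr13:64713813-64714062, plus strand: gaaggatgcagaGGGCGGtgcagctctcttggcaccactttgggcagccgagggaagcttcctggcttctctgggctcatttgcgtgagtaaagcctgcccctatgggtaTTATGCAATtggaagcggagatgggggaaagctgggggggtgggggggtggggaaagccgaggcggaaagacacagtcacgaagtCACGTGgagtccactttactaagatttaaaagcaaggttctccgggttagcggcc
Ptgs1, chr3:39981169-39981418, plus strand: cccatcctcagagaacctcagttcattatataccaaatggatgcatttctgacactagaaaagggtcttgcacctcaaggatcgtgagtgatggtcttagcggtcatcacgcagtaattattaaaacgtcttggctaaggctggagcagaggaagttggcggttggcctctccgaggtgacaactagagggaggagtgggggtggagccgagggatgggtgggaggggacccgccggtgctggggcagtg
Ptges, chr3:34586988-34587237, minus strand: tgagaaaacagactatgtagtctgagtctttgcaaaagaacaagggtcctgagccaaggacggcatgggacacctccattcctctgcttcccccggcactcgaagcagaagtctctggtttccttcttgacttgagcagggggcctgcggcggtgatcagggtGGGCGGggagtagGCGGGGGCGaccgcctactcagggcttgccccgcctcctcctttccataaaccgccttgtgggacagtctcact

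The motifs were searched on both strands as exact letters. In the Ptgs2 promoter they were a GC box (GGGCGG) at bases 238 to 233 before the start, a C/EBP site (TTNNGNAAT) at bases 140 to 132 and an E-box (CACGTG) at bases 55 to 50. In the Ptges promoter they were a GC box at bases 87 to 82 and an Egr site (GCGNGGGCG) at bases 74 to 66. The Ptgs1 window held a match to none of the motifs. Of 27457 rat promoters of the same length, 32.3% held the GC box, 10.7% the C/EBP site, 5.77% the E-box and 4.51% the Egr site. The GC box was present in 5 of the 9 promoters of these genes and the Egr site in 2, Ptges and Ptger3, where it overlaps a GC box. The other motifs searched were the TATA box (TATAAA, 13.1% of all promoters), the core of the cAMP response element (TGACG, 18.9%), the AP-1 site (TGANTCA, 6.39%) and the NF-kB site (1.26%). The first was found in Tbxas1 alone among the 9 genes, the second in Hpgd alone, the third in Tbxas1 alone and the NF-kB letters in 0 of 9. The GC content was 57.2% for Ptgs2, 54.4% for Ptgs1 and 58.8% for Ptges, against a median of 52.0% over all promoters. A match is a description of the letters only.

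Values below are log2 signals after each array's 75th percentile was subtracted, so 0 is the level of the 75th percentile, and a level is compared only with the same probe's level on other arrays. The 75th percentile signal ran from 197.2 to 383.2, between 67.8% and 73.7% of spots were well above background, and 0 spots were saturated. The number of arrays limits the precision. One slide carried all 4 control arrays. The 8 treated arrays were split over 2 further slides with 2 laser and 2 bur arrays apiece, so slide and scan day cannot be told apart from cutting. The array's spike-in spots were 3.21 log2 units brighter on treated arrays. Differences from control were widespread: 49.8% of all genes passed the test for laser (32.2% higher, 17.6% lower) and 51.0% for bur (32.7% higher, 18.3% lower), against 0.00436% for laser against bur. The median difference of all genes from control was 0.21 for laser and 0.23 for bur. With normexp background correction these medians were 0.03 and -0.006, and the share of bur calls that were higher was 51.6% in place of 64.1%. In the authors' table of quantile-normalized values it was 54.0%.

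Against that background, laser bone had 2 of the 9 tested prostaglandin genes higher and 1 lower than control, with 6 not passing, and a median difference of 0.01. Bur bone had 2 higher and 1 lower with 6 not passing, and a median of 0.48. Read against the 49.8% and 51.0% of all genes called, 3 of 9 is no excess. Arrays did not overlap between laser and control for 2 genes above and 2 below, where 31.0% and 17.7% of all genes lay so (48.7% in either direction), and between bur and control for 2 above and 1 below, where 30.4% and 15.7% did (46.0% in either direction).

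**Figure D1:**
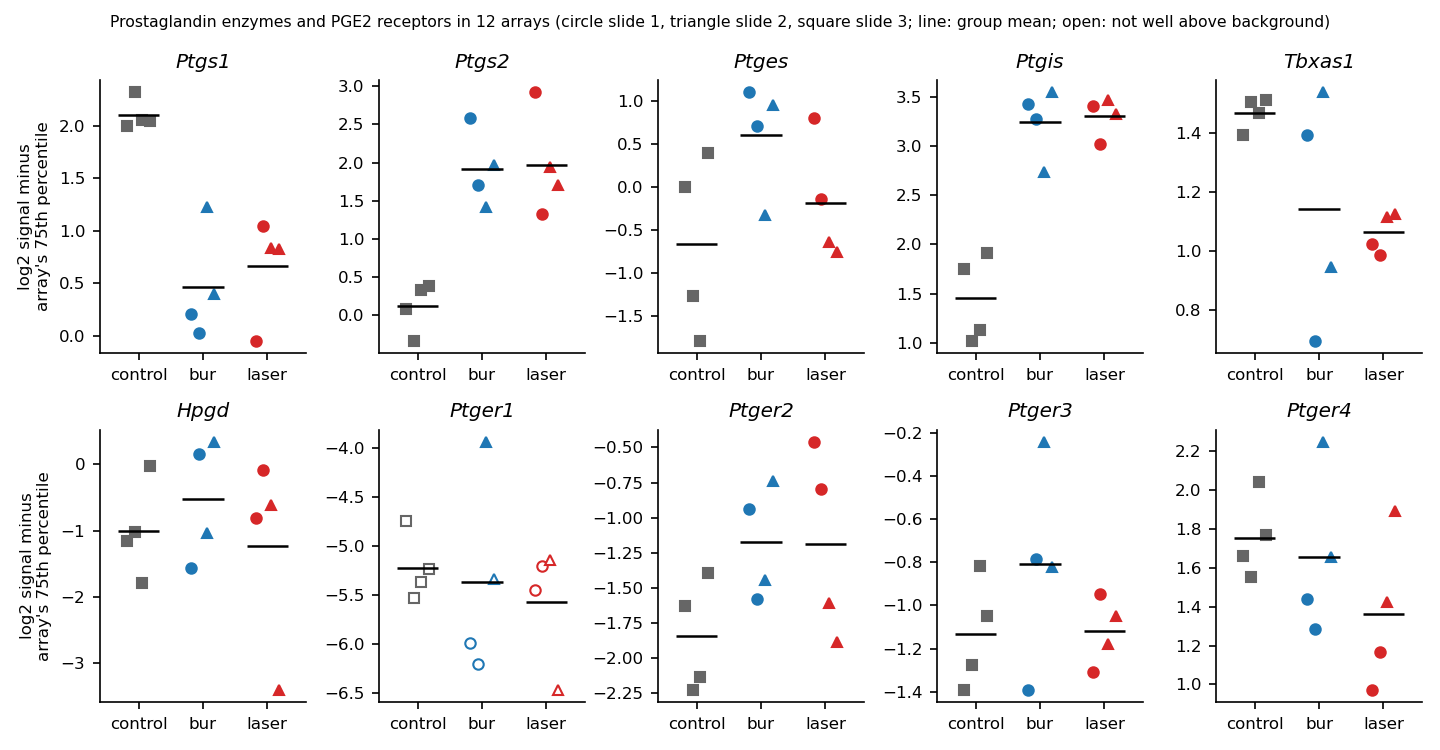
Log2 signal minus the array's 75th percentile (vertical axis) of the 10 prostaglandin genes on 12 arrays, by group (control grey, bur blue, laser red), with symbols for the slide, a line for the mean of 4 arrays, and open symbols where the probe was not well above background. Ptgs2 and Ptgis lie above every control array on all 8 treated arrays, Ptgs1 lies below on all 8, and Ptger1 is well above background on 1 array.

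Ptgs2, the inducible cyclooxygenase, was higher in both kinds of cut bone. On the control arrays its level was 0.08, -0.33, 0.33 and 0.38. On the bur arrays it was 2.58, 1.71, 1.42 and 1.97, and on the laser arrays 2.92, 1.32, 1.94 and 1.71. The lowest treated array, laser replicate 2, was 0.94 above the highest control array. The mean was 0.11 ± 0.33 (SD, n = 4) in control, 1.92 ± 0.50 in bur and 1.97 ± 0.68 in laser bone. Ptgs2 rose 3.63-fold with laser (log2 1.86, SE 0.34, limma adjusted p = 0.001567) and 3.49-fold with bur (log2 1.80, SE 0.34, adjusted p = 0.001852). An exact two-sided permutation test gave p = 0.02857 for each, the smallest that 4 arrays against 4 allow. With treated arrays of slide 1 alone the differences were 2.01 and 2.03, and with those of slide 2 alone 1.71 and 1.58.

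All 3 Ptgs2 probes passed. The probe used lies at chr13:64435202-64435261 and the others at chr13:64433908-64433967 and chr13:64432919-64432978, all on the plus strand of RGSCv3.4, the build of the array design. The second differed from control by 1.53 with laser (SE 0.44, limma adjusted p over all probes = 0.01408) and by 1.29 with bur (SE 0.44, adjusted p = 0.02975). The third differed by 1.48 (SE 0.39, adjusted p = 0.009502) and 1.49 (SE 0.39, adjusted p = 0.008958). The 3 probes gave the same direction and the same call.

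Ptgs1, the constitutive cyclooxygenase, was lower in cut bone. It stood at 2.00, 2.32, 2.06 and 2.05 on the control arrays, at 0.20, 0.02, 1.22 and 0.40 on the bur arrays and at -0.05, 1.04, 0.84 and 0.83 on the laser arrays. Every treated array lay below every control array, and bur replicate 3 was the nearest at 0.78 below the lowest control. The control mean was 2.11 ± 0.14 (SD, n = 4), with 0.46 ± 0.53 in bur and 0.67 ± 0.49 in laser bone. Ptgs1 fell 2.72-fold with laser (log2 -1.44, SE 0.28, limma adjusted p = 0.002152) and 3.13-fold with bur (log2 -1.64, SE 0.28, adjusted p = 0.001135). Its other probe, at chr3:15350683-15350742 near the start of the transcript where the used one at chr3:15365115-15365174 is near the end (plus strand, RGSCv3.4), had -1.47 with laser (SE 0.39, adjusted p = 0.0103) and -1.02 with bur (SE 0.39, adjusted p = 0.04742). That probe was well above background on 4 control arrays but on only 3 bur arrays and 1 laser array, so the sizes rest in part on values at background.

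Markers of several blood lineages were lower in cut bone together with Ptgs1. Of 9 platelet and megakaryocyte genes tested, 8 were lower with laser and 8 with bur, and their summed linear signal ran from 64.57 to 95.95 on control arrays and from 11.35 to 64.26 on treated arrays, with no overlap. Among them Itga2b, the platelet integrin chain, differed by -2.66 with laser and -3.22 with bur. Of 8 erythroid markers, 6 were lower with each cut (medians -2.55 and -2.60), though their summed signal overlapped, at 1304 to 1605 on control and 903.6 to 1913 on treated arrays. Outside the blood lineages, 4 of 8 neural markers were lower with each cut, where 17.6% and 18.3% of all genes were lower with laser and bur. Their summed signal overlapped, at 5.959 to 54.59 on control and 7.873 to 66.24 on treated arrays. Some were at background in cut bone, such as Elavl3, well above it on 1 bur array and 0 laser arrays. In bulk bone, fewer cells of a type and less RNA per cell cannot be told apart. The part of these cells in the Ptgs1 result was not tested.

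**Figure D2:**
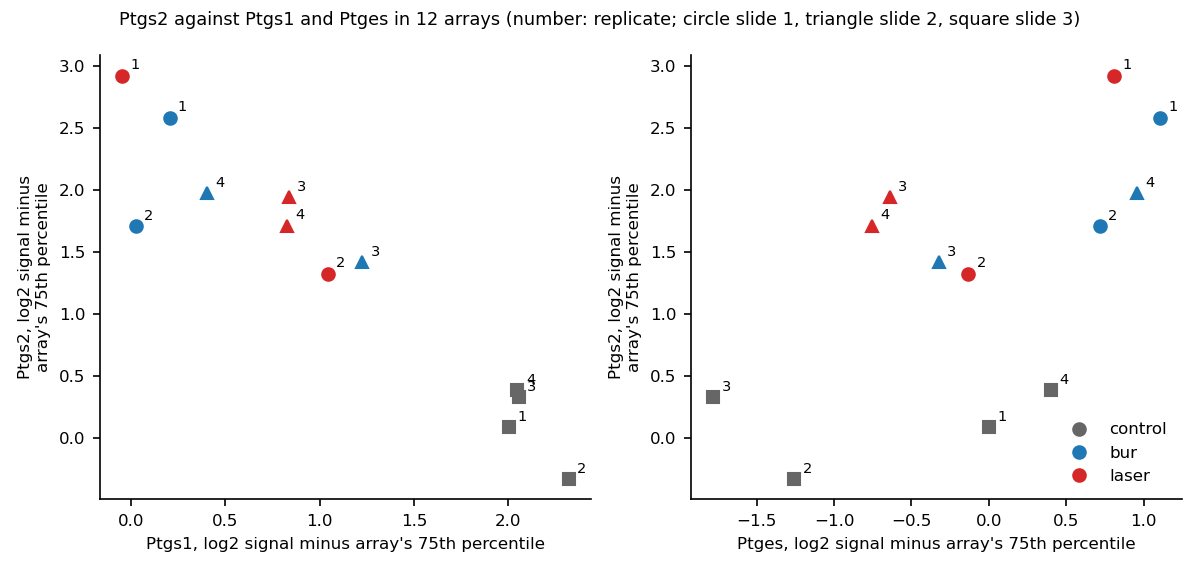
Ptgs2 level (vertical axis) against Ptgs1 level (left) and Ptges level (right) on 12 arrays, both as log2 signal minus the array's 75th percentile, with the group by colour, the slide by symbol and the replicate by number. The 4 control arrays sit at Ptgs1 from 2.00 to 2.32 and Ptgs2 up to 0.38, while the 8 treated arrays have Ptgs1 from -0.05 to 1.22 and Ptgs2 from 1.32 to 2.92.

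The gap between the cyclooxygenases within an array follows from these results. The difference Ptgs2 minus Ptgs1, whose zero depends on the probes, ran from -2.66 to -1.67 in control, from 0.19 to 2.38 in bur and from 0.28 to 2.97 in laser bone. Its group mean shifted by 3.30 from control to laser and by 3.45 from control to bur, and a constant subtracted from an array leaves it unchanged. Within the treated arrays laser replicate 1 had the highest Ptgs2 and the lowest Ptgs1, and bur replicate 3 and laser replicate 2 had the lowest Ptgs2 and the highest Ptgs1. The shift between laser and bur was -0.15 (exact two-sided permutation p = 0.8571).

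Ptges, the inducible microsomal PGE2 synthase, varied most among control arrays, at 0.00, -1.26, -1.78 and 0.40. It was at 1.104, 0.72, -0.32 and 0.96 on bur arrays and at 0.81, -0.13, -0.64 and -0.75 on laser arrays. Bur and control overlapped through bur replicate 3, and laser replicate 1 lay above the control range while the other 3 laser arrays lay within it. The difference from control was 1.27 for bur (SE 0.52, 95% interval 0.12 to 2.43, limma adjusted p = 0.06173) and 0.48 for laser (SE 0.52, interval -0.67 to 1.63, adjusted p = 0.4601). The bur difference missed the threshold, and passed it without control replicate 4 (1.63, adjusted p = 0.0278), without bur replicate 3 (1.59, adjusted p = 0.03078) or without laser replicate 1 (adjusted p = 0.04936). In the authors' deposited table it was 1.22 with an adjusted p of 0.01313. Its 1 probe lies at chr3:9946741-9946800 on the minus strand (RGSCv3.4).

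Ptgis, which makes prostacyclin, a vasodilator that also restrains platelets, had the smallest adjusted p of the 9 tested genes. It stood at 1.75, 1.02, 1.13 and 1.91 on control arrays, at 3.43, 3.27, 2.74 and 3.55 on bur arrays and at 3.41, 3.02, 3.47 and 3.32 on laser arrays. The lowest treated array, bur replicate 3, was 0.83 above the highest control. The means were 1.45 ± 0.44 (SD, n = 4) in control, 3.25 ± 0.36 in bur and 3.31 ± 0.20 in laser bone. Ptgis rose 3.62-fold with laser (log2 1.86, SE 0.24, limma adjusted p = 0.0002511) and 3.47-fold with bur (log2 1.79, SE 0.24, adjusted p = 0.0003358). Its 1 probe lies at chr3:158360438-158360497 on the minus strand of RGSCv3.4.

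The summed signals of bone and connective tissue markers were higher on treated arrays, as were Ptgs2 and Ptgis. The summed signal of 8 osteoblast markers was 1351 to 1820 on control and 2322 to 3784 on treated arrays, that of 7 osteocyte markers 61.67 to 95.6 and 236.8 to 428.1, and that of 8 fibroblast and periosteum markers 89.49 to 202.2 and 210.4 to 330.1, each without overlap. Single markers did not all follow the sums. With laser 8 of 8 osteoblast markers were higher, 6 of 7 osteocyte markers were higher and 1, Sost, lower (-0.80, limma adjusted p = 0.04599), and 4 of 8 fibroblast and periosteum markers were higher. With bur the counts higher were 7 of 8, 7 of 7 and 4 of 8, and Sost was higher (0.88, adjusted p = 0.031). Fgf23, a defining osteocyte product, was well above background on 1 of 12 arrays. The summed endothelial signal was 22.55 to 28.32 on control, 28.65 to 38.2 on bur and 25.44 to 37.27 on laser arrays. Bur thus lay just above control and laser overlapped it. Of these 9 markers, 1 was higher and 2 lower with laser, and 2 higher and 1 lower with bur, with medians of -0.09 and -0.04. The monocyte and macrophage sums overlapped, at 82.35 to 110.2 on control and 73.02 to 121.6 on treated arrays. Of these 10 markers 0 were higher, while 5 were lower with laser and 4 with bur (medians -0.43 and -0.37). The part of these cells in the Ptgs2 and Ptgis results was not tested.

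Tbxas1, the thromboxane synthase of platelets and macrophages, gave different calls by probe. With the probe used (chr4:66676913-66677395, plus strand, RGSCv3.4) it was at 1.39, 1.50, 1.47 and 1.51 in control, at 1.40, 0.70, 1.54 and 0.95 in bur and at 1.02, 0.99, 1.12 and 1.13 in laser bone. All laser arrays lay below all control arrays, while 2 bur arrays lay at or above the lowest control array. The differences from control were -0.41 with laser (SE 0.17, limma adjusted p = 0.06572) and -0.32 with bur (SE 0.17, adjusted p = 0.1265), and neither passed. The laser difference passed in 6 of 15 other settings and without bur replicate 2 (adjusted p = 0.03053) or bur replicate 3 (adjusted p = 0.03894), and the bur difference passed without bur replicate 3 (-0.46, adjusted p = 0.03274). In the authors' deposited table this probe had -0.61 with laser (adjusted p of 0.01329) and -0.58 with bur (adjusted p of 0.01614).

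The second Tbxas1 probe (chr4:66613895-66618099, plus strand) passed in each comparison with control. It ran from -2.21 to -1.65 in control, from -3.96 to -2.77 in bur and from -3.53 to -2.87 in laser bone, with no overlap with control. Its differences were -1.31 with laser (SE 0.26, limma adjusted p = 0.002244) and -1.29 with bur (SE 0.26, adjusted p = 0.002389). The direction was the same with either probe, and the size was not. In the design's coordinates each of these probes spans more than its 60 bases, the second one 4205.

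**Figure D3:**
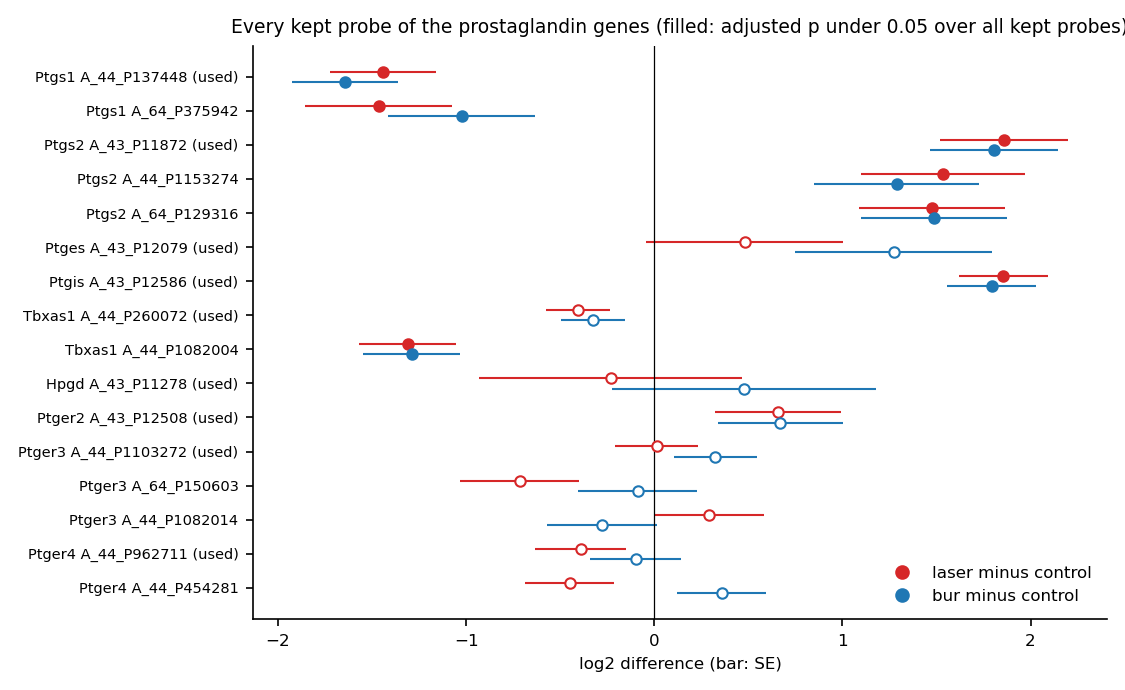
Log2 difference from control (horizontal axis, bar: SE) of the 16 probes of the prostaglandin genes that were well above background on at least 4 arrays, for laser (red) and bur (blue), filled where the adjusted p over all probes was under 0.05. The probes of Ptgs1 and of Ptgs2 lie on one side of 0 each, while only the second of the Tbxas1 probes is filled, and probes of Ptger3 and Ptger4, 1 of them well above background on only 5 of 12 arrays, lie on either side of 0.

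Hpgd, which inactivates PGE2, was the most variable of the tested genes. It was at -1.16, -1.02, -1.80 and -0.02 in control, at -1.56, 0.15, -1.03 and 0.34 in bur and at -0.82, -0.08, -0.62 and -3.42 in laser bone. The groups overlapped, and laser replicate 4 was far below all other arrays. The difference was -0.23 with laser (SE 0.70, 95% interval -1.78 to 1.31, limma adjusted p = 0.797) and 0.48 with bur (SE 0.70, interval -1.07 to 2.02, adjusted p = 0.582). These intervals include changes as large as those of Ptgs1 or Ptgs2.

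Of the PGE2 receptors none passed in either comparison with control, 3 being tested. Ptger2, a receptor that raises cAMP, was at -1.63, -2.23, -2.13 and -1.39 in control, at -0.94, -1.58, -1.44 and -0.74 in bur and at -0.46, -0.79, -1.61 and -1.88 in laser bone. Laser replicates 1 and 2, both on slide 1, were above all controls, and laser replicates 3 and 4, on slide 2, were within the control range. Its difference was 0.66 with laser (SE 0.33, limma adjusted p = 0.1197) and 0.67 with bur (SE 0.33, adjusted p = 0.112). With treated arrays of slide 1 alone the laser difference was 1.22 (adjusted p = 0.01635) and with those of slide 2 alone 0.10, and without laser replicate 4 it was 0.89 (adjusted p = 0.04359).

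Ptger4, the other receptor that raises cAMP, was at 1.66, 1.55, 2.04 and 1.77 in control, at 1.44, 1.28, 2.25 and 1.66 in bur and at 0.97, 1.17, 1.43 and 1.89 in laser bone. Laser replicates 1 to 3 lay below all controls and laser replicate 4 did not. The difference was -0.39 with laser (SE 0.24, limma adjusted p = 0.1942) and -0.10 with bur (SE 0.24, adjusted p = 0.7458). With treated arrays of slide 1 alone the laser difference was -0.69 (adjusted p = 0.01696), and with those of slide 2 alone -0.10. A second probe had -0.45 with laser (adjusted p = 0.1349) and 0.36 with bur (adjusted p = 0.2209), and in the authors' deposited table it had -0.40 with laser (adjusted p of 0.02692).

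Ptger3, which mostly lowers cAMP, was at -1.39, -1.28, -0.82 and -1.05 in control, at -1.39, -0.78, -0.24 and -0.82 in bur and at -1.31, -0.95, -1.18 and -1.05 in laser bone. Bur replicate 3 was the highest array and the groups overlapped. The difference was 0.01 with laser (SE 0.22, interval -0.47 to 0.50, limma adjusted p = 0.9627) and 0.32 with bur (SE 0.22, interval -0.16 to 0.81, adjusted p = 0.234). Without bur replicate 1 the bur difference was 0.52 (adjusted p = 0.04684). A second probe had -0.72 with laser and -0.09 with bur, neither passing, and the remaining one was well above background on only 5 of 12 arrays. No direction is given for the gene. In the authors' deposited table the used probe had 0.39 with bur (adjusted p of 0.04299) and the second probe -0.38 with laser (adjusted p of 0.04861). Ptger1, the receptor that raises calcium, was well above background with its used probe on bur replicate 3 only and with its other probe on bur replicate 4 and laser replicate 1 only. No difference is given for it.

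Laser and bur, the comparison of the 2 ways of cutting, gave no difference past the threshold for any of the 9 genes, where 1 of 22925 genes (0.00436%) passed. With the probe used, laser and bur arrays overlapped for all 9 of them. Of all genes, 3.56% had no overlap (2.06% higher, 1.50% lower). The second Ptger4 probe did not overlap, at -3.25 to -2.80 in laser and -2.65 to -1.78 in bur bone. Its laser minus bur difference was -0.81 (SE 0.24, limma adjusted p over all probes = 0.4864), which did not pass. The intervals bound what these arrays can show. Laser minus bur was 0.05 for Ptgs2 (95% interval -0.70 to 0.81), 0.20 for Ptgs1 (-0.42 to 0.82), 0.06 for Ptgis (-0.46 to 0.58) and -0.08 for Tbxas1 (-0.45 to 0.29). For Ptges it was -0.79 (-1.95 to 0.36), with 3 of 4 bur arrays above 0 and 3 of 4 laser arrays below it. It was -0.71 for Hpgd (-2.25 to 0.84), -0.01 for Ptger2 (-0.74 to 0.72), -0.31 for Ptger3 (-0.80 to 0.18) and -0.29 for Ptger4 (-0.83 to 0.24). For the probes used the limma adjusted p ran from 0.8726 to 0.9997. Slides held both groups here, and within them laser minus bur for Ptges was -0.57 on slide 1 and -1.01 on slide 2, while that for Ptger2 was 0.63 and -0.66, and that for Hpgd 0.25 and -1.67.

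**Figure D4:**
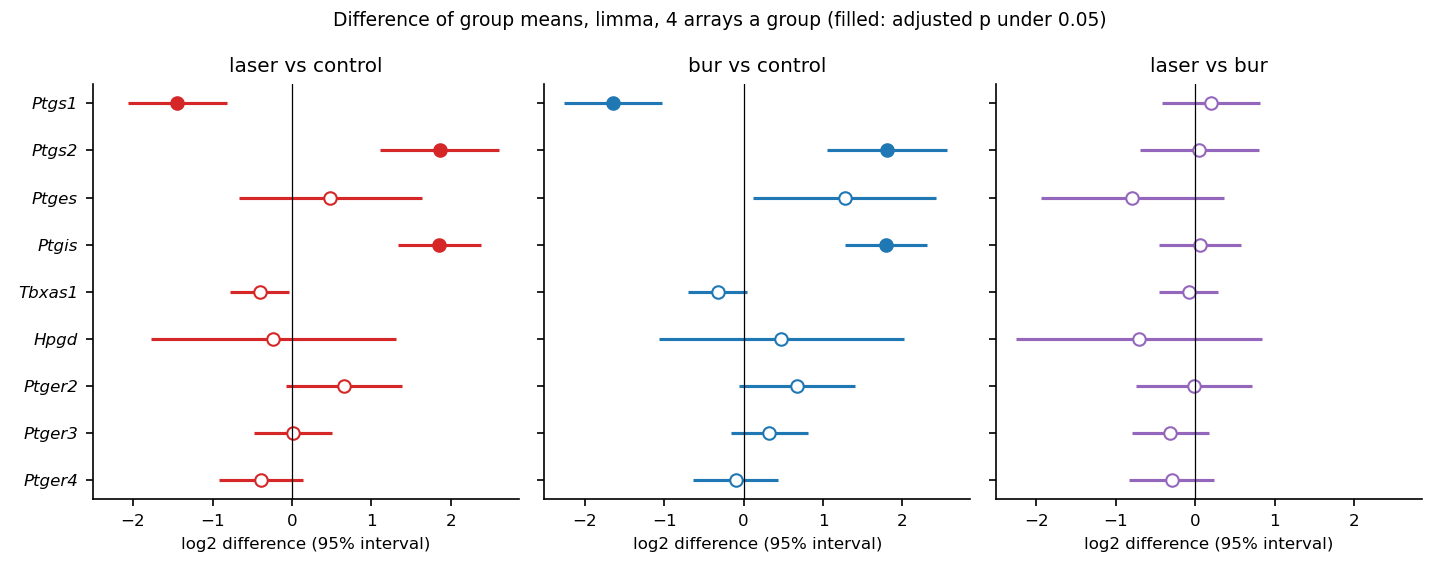
Log2 difference between group means (horizontal axis, bar: 95% interval from limma, 4 arrays a group) of the 9 tested prostaglandin genes in the 3 comparisons, filled where the adjusted p was under 0.05. Ptgs1 is below 0 and Ptgs2 and Ptgis above 0 against control for laser and bur, and every laser-against-bur interval includes 0.

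The further lists are to be read against the shares of all genes given above, 32.2% and 32.7% higher and 17.6% and 18.3% lower with laser and bur. Upstream of the cyclooxygenases, genes of arachidonate release moved in both directions. The list holds phospholipases and also Anxa1, an inhibitor of them, which counts among the lower genes. Of 11 tested, 4 were higher and 4 lower with laser, and 4 and 4 with bur, with medians of 0.35 and 0.24. The group IVA phospholipase Pla2g4a, the cytosolic enzyme most tied to prostaglandin synthesis, fell by 0.92 with laser (SE 0.23, limma adjusted p = 0.007687) and by 1.41 with bur (SE 0.23, adjusted p = 0.0009285). The secreted Pla2g2d fell by 1.17 and 1.01, and Pla2g4f rose by 1.24 and 1.16. The secreted Pla2g5 rose by 1.48 with laser and 0.99 with bur, Pla2g12a by 0.61 and 0.42, and the calcium-independent Pla2g6 by 0.35 and 0.63. The other lower genes, named after their values were seen, were the phospholipase inhibitor Anxa1 (-0.64 and -0.72) and the secreted Pla2g2a (-1.63 and -1.75).

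Among 7 other prostanoid synthases 1 was higher and 2 lower in each comparison with control, with medians of 0.05 for laser and -0.17 for bur. Cbr1, a carbonyl reductase that can turn PGE2 into PGF2 alpha, rose by 1.97 with laser (SE 0.36, limma adjusted p = 0.001481) and by 1.71 with bur (SE 0.36, adjusted p = 0.003070). Fam213b, a prostamide and PGF synthase, fell by 1.198 and 1.06, and the haematopoietic PGD synthase Hpgds fell by 0.72 and 0.69. Mast cells, which carry Hpgds, had 5 of 8 markers lower with laser and 4 of 8 with bur, with a summed signal of 23.48 to 32.84 on control and 8.843 to 24.65 on treated arrays, and their part in this result was not tested. Of 5 genes of transport and breakdown, 3 were higher and 0 lower in each, with medians of 0.42 and 0.49: the prostaglandin transporter Slco2a1 (0.86 and 1.12), the prostaglandin reductase Ptgr2 (0.42 and 0.49) and Zadh2 (0.79 and 0.86), another reductase of this family.

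Receptors for prostacyclin and thromboxane moved in opposite directions. Ptgir, the prostacyclin receptor, rose by 1.19 with laser (SE 0.45, limma adjusted p = 0.04697) and by 1.18 with bur (SE 0.45, adjusted p = 0.04784). Tbxa2r, the thromboxane receptor of platelets and smooth muscle, fell by 1.53 (SE 0.32, adjusted p = 0.002956) and 1.43 (SE 0.32, adjusted p = 0.004194). With these, 1 of 4 tested was higher and 1 lower in each comparison, and the medians were -0.15 and -0.09.

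Genes of the lipoxygenase branch, which competes for arachidonate, were more often lower than higher. Of 9 tested, 5 were lower and 1 higher with laser and 6 and 1 with bur, with medians of -0.91 and -0.84. Alox5, the first enzyme of leukotriene synthesis, fell by 1.43 (SE 0.28, limma adjusted p = 0.002318) and 1.40 (SE 0.28, adjusted p = 0.002651), and its helper Alox5ap by 0.91 and 0.98. The leukotriene B4 receptor Ltb4r fell by 1.33 and 0.84, and Alox12, the platelet lipoxygenase, by 2.38 and 2.58. Alox15, named after its value was seen, fell by 2.65 and 2.31. The 1 higher gene was the low-affinity receptor Ltb4r2, which was not well above background on any control array. It was kept only through treated arrays, so its call is not independent of the filter, and the counts and medians include it. It was at least 2.42-fold higher with laser and at least 3.25-fold higher with bur. Alox5, Alox5ap and Ltb4r are expressed by white cells, and neutrophil markers had 7 of 10 lower with laser and 6 of 10 with bur, their summed signal being 538.3 to 662.9 on control and 268.9 to 687.2 on treated arrays. The part of these cells was not tested.

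Of 14 inducers and mRNA regulators of Ptgs2, 6 were higher and 0 lower with laser, and 6 higher and 1 lower with bur, with medians of 0.51 and 0.52. The cytokine Il6 rose by 1.60 with laser (SE 0.47, limma adjusted p = 0.01599) and 1.60 with bur (SE 0.47, adjusted p = 0.01557). Zfp36, which speeds the decay of AU-rich mRNAs such as that of Ptgs2, rose by 1.59 and 1.33. The transcription factor Egr1 rose by 1.92 with laser and 0.58 with bur, and the growth factor Hbegf rose by 1.02 with laser, with 0.32 for bur (adjusted p = 0.1962). Cebpb rose by 0.64 and 0.84, and Zfp36l1 by 0.59 with bur, with 0.24 for laser (adjusted p = 0.1939). The 1 lower gene with bur, named after its value was seen, was Elavl1, which stabilises such mRNAs, at -0.43. The cytokine Il1b, also named after its value was seen, rose by 1.45 with laser (adjusted p = 0.026) and 1.34 with bur (adjusted p = 0.0355).

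Of 14 genes that respond to cAMP or PGE2, 5 were higher and 0 lower in each comparison with control, with medians of 0.58 for laser and 0.79 for bur, a count near the share of all genes called higher. The cAMP response modulator Crem rose by 1.15 with laser (SE 0.19, limma adjusted p = 0.000955) and by 1.22 with bur (SE 0.19, adjusted p = 0.0007374). Bmp2 rose by 1.42 and 1.13 and the nuclear receptor Nr4a2 by 0.90 and 1.06. Fos rose by 1.46 with laser, with 0.75 for bur (adjusted p = 0.1001), and the phosphodiesterase Pde4b by 0.86 with bur, with 0.53 for laser (adjusted p = 0.05611). Pde4d, named after its value was seen, rose by 2.07 with laser, with 1.57 for bur (adjusted p = 0.1123). Has2, a hyaluronan synthase and 1 of the 5 higher with bur, was not well above background on any control array. It too was kept only through treated arrays, so its call is not independent of the filter. It was at least 2.14-fold higher with bur. With laser the bound was 1.44-fold, from 3 arrays well above background, and Has2 did not pass (adjusted p = 0.1426).

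No gene of these 7 lists passed between laser and bur. The smallest p in each belonged to Egr1 (1.34, limma adjusted p = 0.1265), Abcc4 (-0.35, adjusted p = 0.7024), Pla2g6 (-0.28, adjusted p = 0.7747), Fos (0.71, adjusted p = 0.8109), Ltb4r (-0.49, adjusted p = 0.8495), Akr1b1 (0.32, adjusted p = 0.8524) and Ptgfr (-0.215, adjusted p = 0.9121).

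**Figure D5:**
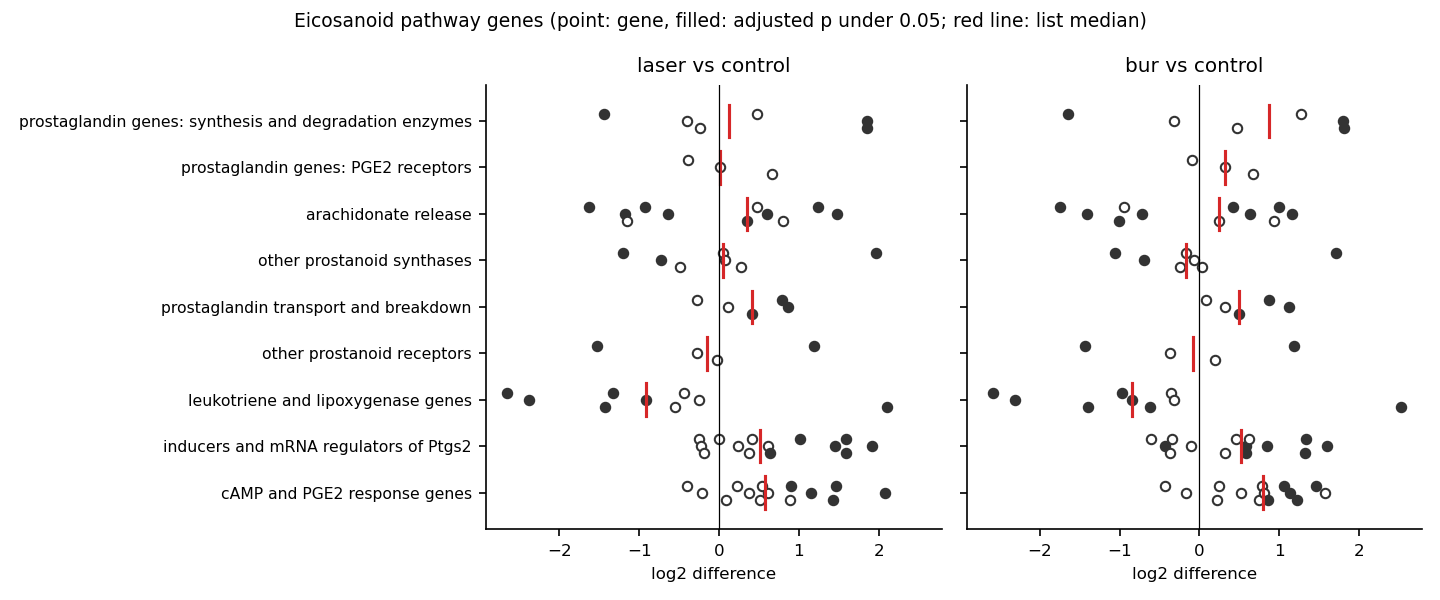
Log2 difference from control (horizontal axis) of each tested gene in the prostaglandin genes and 7 further lists of the eicosanoid pathway, for laser (left) and bur (right), filled where the adjusted p was under 0.05, with a red line at the list's median; Ltb4r2 and Has2, not well above background on control arrays, stand at their fitted differences. The leukotriene and lipoxygenase genes have medians of -0.91 and -0.84, and the genes that respond to cAMP or PGE2 have medians of 0.58 and 0.79.

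The genes whose levels followed Ptgs2 most closely over the 12 arrays, by Pearson correlation among 13960 genes with an official symbol, were Slc37a3 (0.982), a sugar phosphate carrier, Slco1b2 (0.974), an organic anion transporter, Ndufa4l2 (0.973), a mitochondrial protein, Rgs3 (0.972), a regulator of G protein signalling, and Papss2 (0.972), a sulfate donor synthase. The arrays share the control-to-treated step, which enters all of these values. Over the 8 treated arrays alone the values were 0.929, 0.922, 0.952, 0.966 and 0.902. These are descriptions of likeness, with no test.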

How the data were processed

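The authors deposited spot intensity values for every array. Per the submitters' processing notes these came from Agilent Feature Extraction 11.0.1.1, whose processed signal has the local background removed. They also deposited a table of log2 values after quantile normalization, and comparison tables that list per probe the log2 fold, the p-value and its adjusted form. How those tests were fitted is not given here. Samples were grouped by their titles.

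Processed signals of 62976 spots were log2 transformed, control spots and outlier spots were left out, the spots of a probe were averaged (45598 probes) and each array's 75th percentile was subtracted, which hides a change shared by most genes. Probes well above background on at least 4 of 12 arrays were kept, and the brightest stood for a gene. Of the 18 probes of the 10 genes, 16 were kept, and 15 matched RefSeq GRCr8 by accession, all under the same symbol. The groups were fitted in limma 3.58.1 under R 4.3.3 (12 arrays in one fit, two-sided, moderated SE, Benjamini-Hochberg adjustment over all 22925 genes, threshold 0.05). Probes were tested in a second fit over 30122 probes. Where a group had 0 arrays well above background, only a lower bound on the fold is given, from the lowest signals well above background on its arrays. Exact permutation tests used all 70 assignments of 8 arrays. The code was tested on simulated data.

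The genes, lists and tests were chosen with earlier results of these data known. Named from each pathway list were up to 4 genes per comparison with the smallest adjusted p among those passing, or the one with the smallest p where none passed, up to 2 genes per marker list, and the 5 genes most like Ptgs2. Alternatives covered the normalization, background correction, filter, choice of probes, arrays fitted, blocks for replicate number or slide, an intensity trend, a minimum log2 change of 1, and leaving out each array, and centring on the median was added after seeing the data.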

Additional observations from a re-analysis of the deposited data

Results flagged for a closer look

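Ptgs1 on control replicate 2 stood apart from its group, at 2.32 against 2.06 for the nearest and 2.00 for the lowest of the other 3 control arrays. Its gap to the nearest array was 0.833 of the group's range, just past Dixon's 95% critical value for 4 arrays. It was 1 of 30 groups checked (10 genes in 3 groups), and chance alone marks about 1 group in 20. Ptgs1 kept its direction and its call in each comparison with control when any 1 array was left out, at -1.57 to -1.21 for laser and -1.90 to -1.50 for bur.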

How the results depend on the processing

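Ptgs1, Ptgs2 and Ptgis kept their direction and their call against control in all 15 other settings and whenever 1 array was left out. In the other settings they were at -1.61 to -1.16, 1.56 to 2.01 and 1.72 to 1.95 for laser. For bur they were at -1.99 to -1.26, 1.45 to 2.03 and 1.69 to 1.90. Ptgs1 was read by its other probe in the authors' values. Control and treated arrays shared no slide, so the slide block among these settings cannot separate slide from cutting. The count of lower genes with laser was 1 and became 2 with quantile normalization, a percentile taken over detected probes only, normexp, the authors' values, the mean of a gene's probes, only the compared groups, and slide 1 alone (1 to 2 when leaving out 1 array). With bur it was 1 and became 2 with the authors' values and the mean of a gene's probes (1 to 2 when leaving out 1 array). The added gene was Tbxas1, or Ptger4 with slide 1 alone. The cause was not tested.

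Differences that missed the threshold changed sign as follows. For laser minus control, Ptges was -0.037 with slide 2 alone, Hpgd 0.026 with the authors' values and 0.55 with slide 1 alone, and Ptger3 -0.095 with the percentile of detected probes, -0.019 with normexp and -0.14 with the mean of probes. For bur minus control, Ptger3 was -0.014 with the mean of probes, and Ptger4 0.0012 with normexp, 0.13 with the mean of probes and 0.20 with slide 2 alone. For laser minus bur, Ptgs1 was -0.12 with the mean of probes. Slide 1 alone gave -0.024 for Ptgs2, -0.13 for Ptgis, 0.25 for Hpgd and 0.63 for Ptger2, which was also 0.043 with quantile normalization, 0.039 with normexp, 0.051 with the authors' values and 0.0053 with median centring. Leaving out 1 array gave laser minus control of -0.62 to 0.495 for Hpgd and -0.072 to 0.12 for Ptger3, bur minus control of -0.29 to 0.027 for Ptger4, and laser minus bur of -1.09 to 0.019 for Hpgd, -0.25 to 0.22 for Ptger2, -0.11 to 0.16 for Ptgis, -0.26 to 0.27 for Ptgs2 and -0.23 to 0.050 for Tbxas1.

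Same-numbered arrays of different groups deviated together only in part (correlations of 0.0463 to 0.577, over 0.1 in 8 of 12 pairs). On the other side, 8 of 12 arrays correlated best with their own number. The numbers were not taken to pair samples, and a pairing was not excluded. With the replicate number as a block, the bur difference of Ptges, still 1.27, passed (limma adjusted p = 0.01736), and 54.6% and 56.2% of all genes passed against control. With slide as a random block these shares were 38.3% and 39.0%.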
